A study of Mus musculus with 6 samples.

Results

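The genes described here are 7 genes of the NRF2 antioxidant pathway (Nfe2l2, Keap1, Gclc, Gclm, Slc7a11, Txnrd1 and Nqo1) and 3 metallothioneins (Mt1, Mt2 and Mt3). They were taken by name, 10 of the 33457 features in each of 6 single-nucleus RNA libraries, and followed in every cell class and library. All mice were of strain B6, 9 months old, and carried floxed human APOE. The untreated libraries were FE3 (APOE3 fl/fl) and FE4 (APOE4 fl/fl). TAFE3_oil and TAFE3_tam came from P301S mice with APOE3 fl/fl and Aldh1la1CreERT that received oil or tamoxifen, and TAFE4_oil and TAFE4_tam from the same design with APOE4. P301S is a tau mutation used to model tauopathy, and a CreERT recombinase deletes floxed sequence once tamoxifen is given, here in the cells that use the named driver. Titles name the hippocampus, whereas the protocol describes nuclei from the left hemisphere.

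Each group was 1 library, and the labels do not say how many animals it held, so no test between groups was possible. Intervals in brackets are 95% and cover counting error only, so they separate 2 libraries and not 2 conditions. In what follows, the P301S contrast sets an oil-treated P301S library against the untreated library of the same APOE allele, and the tamoxifen contrast sets tamoxifen against oil. The P301S contrast also holds the Cre allele and oil, and the tamoxifen contrast holds the deletion, which cannot be told apart. Levels are UMIs of a gene scaled to the UMI total of its class and library, in counts per 1000000 (CPM), and ratios are log2 ratios of CPM. A ratio is called past 2-fold where it was at least 1 in size with an interval that left out 0, among genes with at least 20 UMIs over both libraries. Levels are not corrected for gene length and are compared within a gene.

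The libraries held 14762 to 18171 barcodes and 39050503 to 49083723 UMIs, of which 9369 to 15918 nuclei were used, and pairs of libraries shared 65 to 83 barcodes. The median mitochondrial share stood apart in FE4 (0.625%) and TAFE4_tam (0.695%), against 2.01 to 3.23% elsewhere. The P301S and tamoxifen contrasts with APOE3, and TAFE4_oil against TAFE3_oil, use neither of these libraries. With 1 library a group, the other comparisons could not be repeated without them. Mitochondrial, ribosomal and neuronal transcripts are therefore given beside the results they moved with. Clustering without the 10 genes gave 16 classes named from markers (astrocyte-like and so on, written here by the plain name). All fixed markers were higher inside their class than outside, except for subicular or cortical excitatory neurons with 8 of 10. That class pooled clusters in proportions that differed between libraries. Its cluster with Cux2 and Rorb among the top genes held 146 nuclei in FE3 and 167 in FE4. It held 1978 and 3146 in the oil-treated P301S libraries (APOE3, APOE4) and 981 and 1113 after tamoxifen. Its cluster topped by Tshz2 held 411 and 730, 370 and 362, and 550 and 538. APOE, the floxed gene, was lower in astrocytes of the tamoxifen libraries, at 4991 CPM against 15770 with APOE3 and 5219 against 18310 with APOE4. This was not limited to astrocytes. APOE also passed 2-fold in vascular fibroblasts (log2 ratios of -1.14 and -1.45), pericytes or smooth muscle (-1.70 and -1.26) and Cajal-Retzius cells (-1.06 and -1.02). Counts assigned to mouse Apoe in astrocytes were lower as well (-1.76 and -1.60), at 409 against 1381 CPM with APOE3 and 565 against 1705 with APOE4. Whether these counts are reads of human APOE was not tested.

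Nfe2l2 encodes NRF2, a transcription factor that KEAP1 holds in the cytoplasm and hands to degradation. When oxidants or electrophiles modify KEAP1, NRF2 enters the nucleus and binds antioxidant response elements near genes that make glutathione, reduce thioredoxin and quinones and store iron. Much of this control acts on the protein, which nuclear RNA does not measure. Metallothioneins are small cysteine-rich proteins that bind zinc and copper. Mt1 and Mt2 are induced through MTF1, which binds metal response elements, and by glucocorticoids, while Mt3 is known as the brain form. In brain, astrocytes are known for glutathione synthesis and for Mt1 and Mt2.

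The metallothionein genes lay on the plus strand of chromosome 8 within 27721 bases (GRCm38), Mt3 at chr8:94152607-94154146, Mt2 at chr8:94172664-94173568 and Mt1 at chr8:94179082-94180327. Up to 250 bases before the first annotated start were taken from RefSeq (GRCm38.p6), which had an entry for 9 of the 10 genes, not Gclc. The metallothionein windows are shown because they differ in metal response element cores, in capitals: TGCACNC or TGCGCNC on either strand. Those of Gclm and Nfe2l2 are shown because each held the antioxidant response element core TGACNNNGC on either strand, again in capitals. All run 5′ to 3′ along the gene, from chr8:94178839-94179081 (+), chr8:94172368-94172617 (+), chr8:94152357-94152606 (+), chr3:122245307-122245556 (+) and chr2:75704664-75704913 (-).
Mt1: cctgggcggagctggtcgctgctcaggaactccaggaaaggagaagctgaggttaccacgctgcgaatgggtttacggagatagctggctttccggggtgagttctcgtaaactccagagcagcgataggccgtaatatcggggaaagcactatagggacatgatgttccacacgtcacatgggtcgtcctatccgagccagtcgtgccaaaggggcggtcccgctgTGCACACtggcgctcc
Mt2: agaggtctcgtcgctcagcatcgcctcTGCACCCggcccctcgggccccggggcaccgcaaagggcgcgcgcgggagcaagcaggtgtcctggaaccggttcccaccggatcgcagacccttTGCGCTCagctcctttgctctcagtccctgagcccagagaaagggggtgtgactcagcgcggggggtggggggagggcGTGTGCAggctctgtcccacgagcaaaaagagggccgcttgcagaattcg
Mt3: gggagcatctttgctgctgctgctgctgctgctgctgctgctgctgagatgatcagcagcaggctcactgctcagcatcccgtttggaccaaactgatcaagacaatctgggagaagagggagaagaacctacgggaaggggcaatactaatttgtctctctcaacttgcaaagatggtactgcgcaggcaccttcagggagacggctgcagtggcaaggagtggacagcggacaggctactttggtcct
Gclm: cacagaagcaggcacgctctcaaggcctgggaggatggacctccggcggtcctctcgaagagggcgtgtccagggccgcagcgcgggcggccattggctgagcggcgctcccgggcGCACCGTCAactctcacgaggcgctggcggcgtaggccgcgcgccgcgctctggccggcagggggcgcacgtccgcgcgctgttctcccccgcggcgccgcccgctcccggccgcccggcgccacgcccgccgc
Nfe2l2: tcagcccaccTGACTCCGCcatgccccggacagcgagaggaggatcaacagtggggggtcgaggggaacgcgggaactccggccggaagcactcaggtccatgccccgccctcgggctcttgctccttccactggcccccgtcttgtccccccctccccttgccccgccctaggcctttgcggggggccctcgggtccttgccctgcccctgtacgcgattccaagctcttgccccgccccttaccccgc
Within these windows Mt1 held 1 metal response core, Mt2 held 3 and Mt3 held 0. Of 32851 promoter windows of 250 bases, 21.4% held at least 1 such core, 5.17% at least 2 and 1.26% at least 3. The antioxidant core was in 10.2% of the windows. Besides Gclm and Nfe2l2 it was found in Mt2, as TGACTCAGC, and in 1 of 3 windows of Txnrd1. Gclm also held 2 metal response cores, 1 of which overlaps its antioxidant core. These matches describe letters and show no binding. Cores outside the windows were not searched, so the counts do not rank the promoters. The Mt2 window ended at chr8:94172617, before the gene start at chr8:94172664.

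The genes differed in how they were spread over cell classes. Slc7a11, Nfe2l2 and Nqo1 each had their 3 highest medians in glial, vascular or epithelial classes. Over the 14 classes present in at least 5 libraries this also held for the metallothioneins, Gclm and Txnrd1. For Txnrd1 these medians were 23.4, 22.8 and 18.7 CPM, with dentate granule neurons next at 17.4. Mt1, Mt2, Mt3 and Gclm had their highest medians in astrocytes or, for Gclm, in endothelium and then astrocytes. Keap1, Gclc and Txnrd1 were spread broadly, and over the 14 classes present in at least 5 libraries the range of each class overlapped that of the next. Such overlap alone does not set them apart, since it also held for Nfe2l2, Gclm and Mt3.

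**Figure D1:**
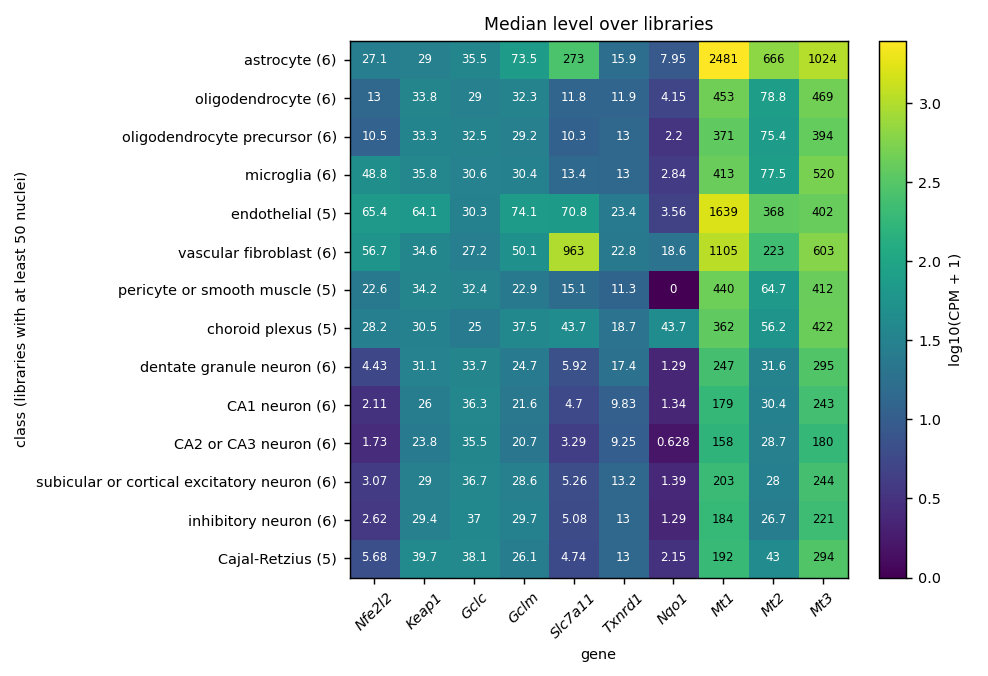
Median CPM over libraries of the 10 genes in each class (printed in the cells, color on a log10 scale), with the number of libraries holding at least 50 nuclei in brackets. Slc7a11 stands out in vascular fibroblasts (963) and astrocytes (273), Nqo1 in choroid plexus (43.7) and Mt1 in astrocytes (2481).

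Slc7a11, the cystine transporter xCT that supplies cysteine for glutathione, had the sharpest pattern. Vascular fibroblasts held 774 CPM (APOE3) and 905 CPM (APOE4) when untreated, 1310 and 1037 in oil-treated P301S mice, and 770 and 1022 after tamoxifen. Astrocytes came next at 149 to 337 CPM, and neither range overlapped that of the following class. Endothelium held 22.1 to 120 CPM, and the 5 large neuron classes (CA1, CA2 or CA3, dentate granule, inhibitory, subicular or cortical) 1.65 to 7.57. The fibroblast cluster also carried mural, endothelial and astrocyte markers, at mean log2 ratios of 3.29, 2.93 and 2.24 to the other clusters. Its fibroblast markers were at 4.65. Its 719 nuclei with more fibroblast than smooth muscle or pericyte marker UMIs held 1062 CPM [1016, 1110], and the 355 with the reverse held 823 [775, 872]. The part of the endothelial and astrocyte markers was not tested. An unnamed cluster of 266 nuclei, with fibroblast markers at 1.82, held 34.4 CPM [22.3, 50.8] of Slc7a11.

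Nfe2l2 was highest in endothelium (57.3 to 81.0 CPM over 5 libraries) and vascular fibroblasts (44.8 to 75.5), which overlapped. Microglia held 42.4 CPM in FE4, 63.1 and 55.1 in the oil-treated APOE3 and APOE4 libraries, and 38.3 and 79.8 after tamoxifen. The 97 microglia of FE3 had 0 UMIs of the gene, which allows up to 32.5 CPM at 3 counts of the class total, and 39.9 by the exact interval. In the 5 large neuron classes it lay between 0.561 and 7.53 CPM.

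Nqo1, a quinone reductase, reached 22.7 to 69.9 CPM in choroid plexus and 9.74 to 27.6 in vascular fibroblasts. It was at 4.75 to 12.9 CPM in astrocytes and at most 2.78 in the 5 large neuron classes. Pericytes or smooth muscle had 0 UMIs of it in all 5 libraries with enough nuclei. Gclm, the modifier subunit of glutamate-cysteine ligase, had medians of 74.1 CPM in endothelium and 73.5 in astrocytes against 20.7 to 29.7 in those neurons.

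Gclc, the catalytic subunit of the same enzyme, had medians of 24.97 to 38.1 CPM over the 14 classes present in at least 5 libraries. Keap1, the NRF2 inhibitor, went from 23.8 CPM in CA2 or CA3 neurons to 64.1 in endothelium. Txnrd1, the cytosolic thioredoxin reductase, had medians of 9.25 to 23.4 CPM. The ratio of astrocyte to dentate granule neuron level within a library was 0.769 to 1.36 for Gclc and 1.67 to 4.47 for Gclm.

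In astrocytes the regulator itself differed between libraries. Nfe2l2 was at 23.8 CPM (20 UMIs) for FE3 and 25.5 (82) in FE4. The oil-treated P301S libraries held 63.5 CPM (49 UMIs) with APOE3 and 57.2 (40) with APOE4, and the tamoxifen libraries 28.7 (20) and 24.2 (11). Both oil-treated P301S libraries stood above the other 4. The log2 ratio in the P301S contrast was 1.42 [0.64, 2.25] with APOE3 and 1.17 [0.58, 1.73] with APOE4. In the tamoxifen contrast it was -1.15 [-1.98, -0.37] with APOE3 and -1.24 [-2.36, -0.25] with APOE4. Both contrasts use the same oil-treated libraries.

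The share of astrocytes with an Nfe2l2 UMI was 3.83% and 6.12% when untreated (APOE3, APOE4), 11.4% and 11.97% in the oil-treated P301S libraries, and 5.65% and 4.72% after tamoxifen. Median depths were 1472 to 1926 UMIs. Thinned to 1000 UMIs a nucleus, the shares were 3.16% [1.74, 5.25] and 3.85% [2.77, 5.18] when untreated, 4.29% [2.30, 7.23] and 5.69% [3.29, 9.08] in the oil-treated P301S libraries, and 2.19% [0.884, 4.46] and 2.28% [0.745, 5.25] after tamoxifen. At this depth the intervals overlapped in both contrasts with both alleles. Dentate granule neurons, at 2085 to 2677 UMIs, had 0.594 to 1.94%.

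The tamoxifen difference depended on the mitochondrial limit. With no limit its log2 ratios were -0.45 and -0.51, both under 2-fold, and the APOE4 P301S value was 0.93. With doublets kept the APOE4 tamoxifen ratio was -0.91, also under 2-fold. The APOE4 P301S value was 0.95 under TMM scaling and 0.93 under median-of-ratios scaling. Neuronal transcripts in astrocytes had a median log2 ratio of 1.11 in FE4 against FE3. Past 2-fold, 5 of 10 genes were higher, where 4.58% of all genes were. In the APOE4 P301S contrast the median was -0.74, with 4 of 10 lower, where 3.37% of all genes were. In the other 5 comparisons it was -0.28 to 0.09. Their part in the Nfe2l2 values, and in the other astrocyte values that use FE4, was not tested.

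**Figure D2:**
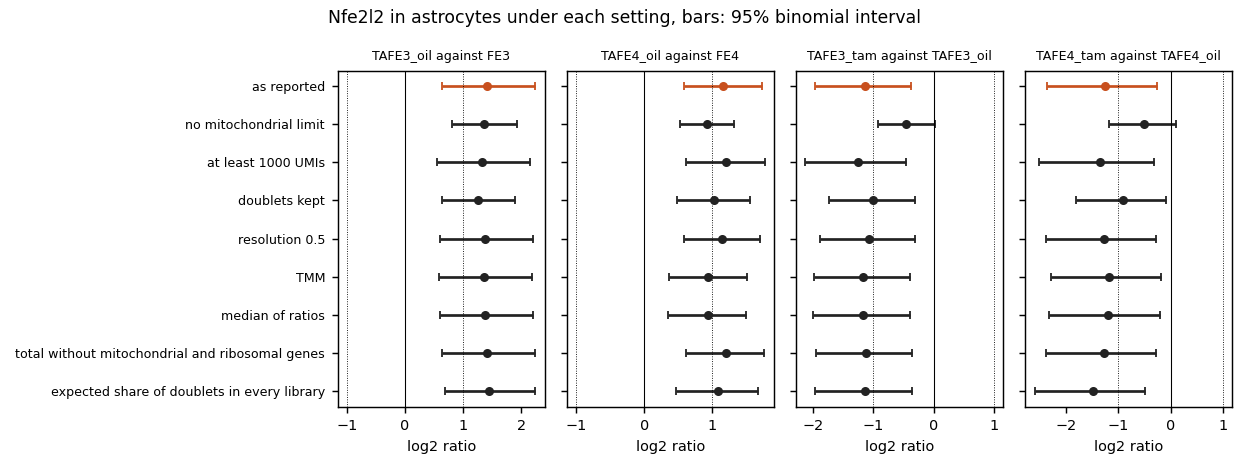
Log2 ratio of Nfe2l2 in astrocytes (points, with 95% binomial intervals) in 4 comparisons under 9 settings, the reported one in orange. The APOE3 P301S ratio lies between 1.26 and 1.44 under the alternatives, whereas both tamoxifen ratios lie nearer 0 without a mitochondrial limit (-0.45 and -0.51).

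Outside astrocytes the regulator passed 2-fold in 4 more values. Astrocytes included, 2 of 7 classes were higher in the APOE3 P301S contrast, where 2.14% of all values measured were. With APOE4 3 of 8 were, at 7%, and 1 of 8 for TAFE4_tam against TAFE3_tam, at 1.6%. Oligodendrocytes had 22 UMIs in TAFE3_oil (25.6 CPM) and 2 in FE3 (3.37 CPM), a log2 ratio of 2.93 [0.90, 6.06] on the counts as they are and of 2.34 with the count of FE3 set to 3, with 8.29 to 19.1 CPM in the remaining 4 libraries. In the APOE4 P301S contrast, inhibitory neurons held 5.58 against 0.900 CPM, a log2 ratio of 2.63 [1.14, 4.59] on 32 and 4 UMIs, and dentate granule neurons 7.42 against 2.50 CPM, at 1.57 [0.45, 2.64]. Ribosomal protein genes had medians of 1.01 and 1.02 in these 2 neuron classes and mitochondrially encoded genes 1.51 and 1.59, and their part was not tested. In microglia Nfe2l2 was higher in TAFE4_tam than in TAFE3_tam by 1.06 [0.37, 1.82]. Gclc in microglia was higher in the same comparison, by 1.17 [0.09, 2.46] on 52 and 8 UMIs. Both microglial calls were lost with no mitochondrial limit and with at least 1000 UMIs a nucleus, the lowest values being 0.88 for Nfe2l2 and 0.53 for Gclc.

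Keap1 was not called in astrocytes. Its level there was 21.4 and 22.4 CPM when untreated (APOE3, APOE4), 32.4 and 40.1 in the oil-treated P301S libraries, and 27.2 and 30.8 after tamoxifen. The log2 ratio in the P301S contrast was 0.60 [-0.33, 1.56] with APOE3 and 0.84 [0.15, 1.49] with APOE4. In choroid plexus Keap1 was at 83.9 CPM in TAFE3_oil, 16.2 in FE3 and 31.2 in TAFE3_tam. These gave log2 ratios of 2.37 [0.95, 4.12] in the P301S contrast and -1.43 [-3.17, -0.01] in the tamoxifen contrast, on 5 UMIs at the low end, and the second was lost with at least 1000 UMIs a nucleus. In oligodendrocytes FE4 was below FE3, at 20.1 against 43.8 CPM (-1.12 [-1.90, -0.33]), a call lost with no mitochondrial limit (-0.80) and at resolution 0.5.

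Of the glutathione enzymes among the 10 genes, Gclm was the one whose astrocyte interval left out 0 in the P301S contrast with both alleles. It was at 44.0 CPM for FE3 and 43.5 in FE4, at 79.0 and 80.1 in the oil-treated P301S libraries, and at 98.9 and 68.1 after tamoxifen. All 4 P301S libraries lay above both untreated ones. The log2 ratios in the P301S contrast, 0.84 [0.23, 1.48] and 0.88 [0.41, 1.34], stayed under 2-fold. In the tamoxifen contrast they were 0.32 [-0.19, 0.85] and -0.23 [-0.92, 0.42]. Gclc in astrocytes ranged from 30.1 to 46.1 CPM, and its intervals included 0 in all 7 comparisons, with the widest in the APOE4 tamoxifen contrast at -0.33 to 1.56.

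Slc7a11 in astrocytes was at 277 CPM for FE3 and 149 in FE4, at 256 and 269 in the oil-treated P301S libraries, and at 337 and 336 after tamoxifen. FE4 was below the others, at a log2 ratio of -0.90 [-1.13, -0.67] to FE3, which became -0.47 when the expected share of doublets was left out of every library. Neuronal transcripts in astrocytes were higher in FE4 than in FE3, and their part was not tested. For Slc7a11 the tamoxifen contrast gave 0.39 [0.11, 0.67] with APOE3 and 0.32 [0.00, 0.64] with APOE4, less than 2-fold. In vascular fibroblasts it gave -0.77 [-0.98, -0.56] with APOE3 and -0.02 [-0.18, 0.14] with APOE4.

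In endothelium Slc7a11 was lower in the APOE4 than in the APOE3 libraries of P301S mice. It was at 45.3 against 120 CPM in the oil-treated libraries, a log2 ratio of -1.41 [-2.31, -0.56] on 18 and 36 UMIs. After tamoxifen it was at 22.1 against 107 CPM, at -2.27 [-3.83, -0.99] on 6 and 30 UMIs. The neuronal transcript median in endothelium was -0.56 and -0.83 in these comparisons, and its part was not tested. FE4 endothelium held 70.8 CPM, and FE3 had only 39 endothelial nuclei. The endothelial cluster also carried astrocyte and mural markers, at mean log2 ratios of 1.75 and 2.99 to the other clusters. Their part was not tested.

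In choroid plexus Slc7a11 was at 117 CPM in FE3, 25.8 in FE4 and 48.9 in TAFE3_oil, with log2 ratios to FE3 of -2.18 [-3.30, -1.17] and -1.26 [-2.26, -0.33]. The second became 0.13 with no mitochondrial limit. In dentate granule neurons it was at 7.57 CPM for FE3 and 3.21 in FE4, 4.98 and 6.85 in the oil-treated libraries, and 7.004 and 2.51 after tamoxifen. FE4 and TAFE4_tam, the 2 libraries of low mitochondrial share, were lowest, and the log2 ratios were -1.24 for FE4 to FE3 and -1.45 in the APOE4 tamoxifen contrast.

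Txnrd1 and Nqo1 were too sparse in astrocytes to separate libraries. Txnrd1 was at 16.6 and 15.2 CPM when untreated, 9.07 and 12.9 in the oil-treated libraries, and 21.5 and 24.2 after tamoxifen, on 7 to 49 UMIs. Its log2 ratio in the tamoxifen contrast was 1.25 [-0.14, 2.78] with APOE3 and 0.91 [-0.50, 2.36] with APOE4. Nqo1 had 3 to 22 UMIs. In choroid plexus Nqo1 was at 69.9 CPM in TAFE3_oil against 22.7 in FE3, a log2 ratio of 1.62 [0.32, 3.11] on 20 and 7 UMIs. Txnrd1 passed 2-fold once each in oligodendrocytes (1.03, APOE4 P301S contrast), CA1 neurons (-1.02, APOE3 tamoxifen contrast) and Cajal-Retzius cells (-1.52, TAFE4_oil against TAFE3_oil), on 8 to 23 UMIs. Of these calls, that in oligodendrocytes was lost under 5 of 8 alternatives (lowest 0.83), that in CA1 neurons under 3 of 9 and that in Cajal-Retzius cells under 3 of 6. Gclm passed it once each in CA2 or CA3 neurons (1.09) and vascular fibroblasts (-1.07), both for TAFE4_oil against TAFE3_oil. The first was lost under TMM and median-of-ratios scaling (lowest 0.96) and the second with no mitochondrial limit (-0.76).

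Other known NRF2 targets, a list of 23 genes, were read beside these in astrocytes. In the APOE3 P301S contrast 4 of 18 measured were higher past 2-fold and 0 lower, with a median of 0.67 against 0.02 over all genes, of which 4.63% were higher. With APOE4, 12 of 21 were higher and 0 lower, with a median of 1.15 against 0.20 over all genes, of which 10.7% were higher. Ribosomal protein genes had medians of 0.12 and 1.08 in the same contrasts. Neuronal transcripts in astrocytes were lower in the APOE4 contrast, as given above, and the part of both in these counts was not tested. Past 2-fold with both alleles were Cat, the catalase (1.54 and 1.45), Gstp1, a glutathione transferase (1.12 and 1.20), and Prdx1, a peroxiredoxin (1.05 and 1.34). Cat was at 17.8 and 13.1 CPM when untreated and 51.8 and 35.8 in the oil-treated P301S libraries.

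In the tamoxifen contrast 3 of 18 targets were lower past 2-fold with APOE3 (Sqstm1, Ephx1 and Cbr3), where 1.36% of all genes were, and 1 of 17 with APOE4 (Txn1), where 2.76% were. The medians were 0.00 and -0.34. In dentate granule neurons 0 of 21 other targets were higher in the APOE3 P301S contrast, where 1.46% of all genes were, and 7 of 21 with APOE4, where 6.52% were.

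The remaining lists were read in astrocytes in the P301S contrast, with APOE3 first. Genes that control NRF2, its partners and degradation factors, gave 0 of 6 and 1 of 7 higher past 2-fold, where 4.63% and 10.7% of all genes were. At the same background, genes of glutathione synthesis and use gave 1 of 9 and 5 of 10 higher. Zinc and copper genes gave 1 of 11 higher and then 1 of 12 lower, and glucocorticoid-responsive genes 0 of 7 and then 2 of 8 lower, where 3.37% of all genes were lower with APOE4. Reactive astrocyte genes, at that background of 4.63% and 10.7%, were higher for 9 of 10 and 9 of 9 measured, with medians of 2.84 and 2.27, among them Vim, an intermediate filament gene (3.00 and 2.58).

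Outside astrocytes, reactive astrocyte genes also passed 2-fold in the P301S contrast with both alleles. C4b, a complement gene, and Gfap were higher in the 5 large neuron classes, oligodendrocytes, their precursors and microglia, and Vim in the 5 neuron classes. In dentate granule neurons 3 of 4 measured were higher with each allele, where 1.46% and 6.52% of all genes were, C4b by 3.37 and 3.05 and Gfap by 1.77 and 3.75. In oligodendrocytes C4b was higher by 3.596 and 3.42, and in microglia APOE was higher by 2.74 and 3.92. Free RNA was not subtracted, and the part of RNA from astrocytes in these values was not tested.

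From the other lists, each of the following passed 2-fold with both alleles. Srxn1, which restores oxidised peroxiredoxins, was higher in subicular or cortical neurons (1.02 and 1.16). Slc30a3, the synaptic vesicle zinc transporter ZnT3, was lower in CA1 neurons (-1.13 and -1.07). Cp, the copper carrier ceruloplasmin, was higher in inhibitory neurons (2.50 and 1.02). It was there at 11.1 against 1.97 CPM with APOE3 and 8.19 against 4.05 with APOE4, and the part of free RNA was not tested. Sgk1, a glucocorticoid-responsive kinase, was lower in oligodendrocytes (-1.06 and -1.77). Of the long nuclear RNAs, Neat1 was higher in 7 classes, for example by 1.56 and 1.40 in dentate granule neurons.

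Metallothionein levels in astrocytes were higher in P301S than in untreated libraries. Mt1 was at 1276 CPM for FE3 and 1146 in FE4, at 2865 and 2776 in the oil-treated P301S libraries, and at 2516 and 2447 after tamoxifen. Mt2 was at 442 and 411 CPM when untreated, 745 and 801 with oil, and 680 and 652 with tamoxifen. Mt3 was at 717 and 489 CPM when untreated, 1012 and 1167 with oil, and 1179 and 1037 with tamoxifen. For each gene the 4 P301S libraries lay above both untreated ones, with no overlap of the intervals.

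The log2 ratios of Mt1 in the P301S contrast were 1.17 [1.06, 1.27] with APOE3 and 1.28 [1.20, 1.36] with APOE4. Those of Mt2 were 0.75 [0.56, 0.94] and 0.96 [0.82, 1.10], and those of Mt3 0.50 [0.34, 0.65] and 1.26 [1.13, 1.38]. Mitochondrially encoded genes in astrocytes had medians of -0.48 and 0.80 in the same contrasts, and their part was not tested. Nor was the part of neuronal transcripts, which were lower in the APOE4 contrast. With no mitochondrial limit Mt1 was 1.37 with APOE3 and 1.73 with APOE4.

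**Figure D3:**
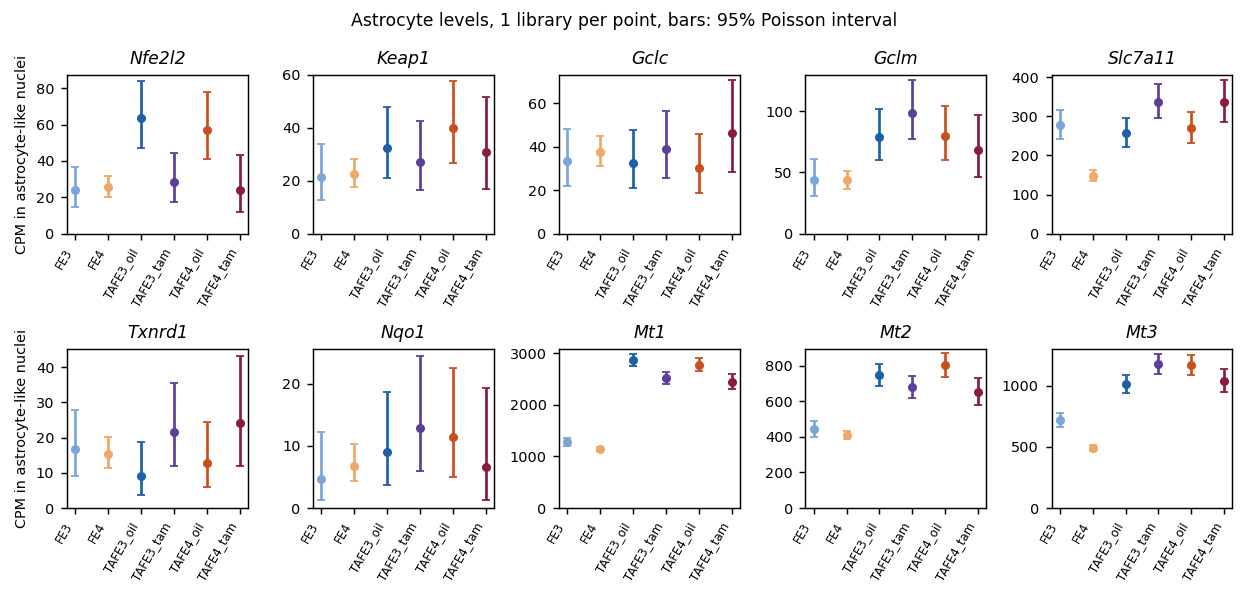
CPM of the 10 genes in astrocytes of each library (points, 1 library each, with 95% Poisson intervals and linear axes from 0). Mt1, Mt2 and Mt3 are higher in all 4 P301S libraries than in FE3 and FE4, and Nfe2l2 is highest in the 2 oil-treated ones (63.5 and 57.2).

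The APOE4 values depended on doublets, of which 619 were left out in FE4 where the expected share was 2188. With the expected share left out of every library, the APOE4 P301S contrast gave 0.94 for Mt1 and 0.99 for Mt3, just under 2-fold. FE4 against FE3 went from -0.16 to 0.32 for Mt1 and from -0.10 to 0.40 for Mt2, so its direction changed with this choice. In the tamoxifen contrast the log2 ratios were -0.19 for Mt1, -0.13 for Mt2 and 0.22 for Mt3 with APOE3, and -0.18, -0.30 and -0.17 with APOE4. TAFE4_oil against TAFE3_oil gave -0.05, 0.11 and 0.21.

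Across all classes most calls among the 10 genes were of metallothioneins. In the APOE4 P301S contrast, 35 of 108 values were past 2-fold in either direction, where 9.04% of all values measured were, and all 35 were higher, where 7% were. Of these, 31 were metallothioneins (12 of 13 classes for Mt1, 8 for Mt2 and 11 for Mt3). In the APOE4 tamoxifen contrast 21 of 107 were called, at a background of 3.54%, and all 21 were lower, at 2.15%; 18 were metallothioneins. In FE4 against FE3, 14 of 83 were called, at 4.16%, and 13 were lower, at 2.89%, with 11 metallothionein values among the 14.

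With APOE3 the same contrasts gave few calls. In the P301S contrast 6 of 87 values were past 2-fold, at a background of 4.17%, and 1 was a metallothionein, Mt1 in astrocytes. In the tamoxifen contrast 3 of 103 were called, at 2.4%, and 0 were metallothioneins. TAFE4_oil against TAFE3_oil gave 5 of 99 at 2.24%, and TAFE4_tam against TAFE3_tam 7 of 102 at 3.25%. These comparisons share libraries and are not independent.

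Inhibitory neurons show the library levels behind these counts. Mt1 there was at 164 CPM for FE3 and 74.7 in FE4, at 205 and 330.5 in the oil-treated P301S libraries, and at 229 and 122 after tamoxifen. FE4 was lowest and TAFE4_tam next. The log2 ratio was 2.15 [1.98, 2.32] in the APOE4 P301S contrast and -1.13 [-1.35, -0.92] for FE4 to FE3. Mt2 in the same class had the highest Mt2 ratio of the APOE4 P301S contrast, 2.41 [1.98, 2.86], from 11.5 to 61.0 CPM.

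Mt3 in dentate granule neurons was at 320 CPM for FE3 and 163 in FE4, at 270 and 382 in the oil-treated libraries, and at 365 and 217 after tamoxifen. Here too FE4 and TAFE4_tam were lowest, and FE3 lay within the range of the P301S libraries. Microglia held Mt1 at 325 CPM for FE3 and 265.5 in FE4, 501 and 724 with oil, and 586 and 285 with tamoxifen. Oligodendrocytes held it at 350 and 247 CPM when untreated, 556 and 733 with oil, and 608 and 345 with tamoxifen.

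In endothelium Mt1 was at 795 CPM in FE4, 1752 and 1939 in the oil-treated P301S libraries, and 1639 and 1561 after tamoxifen. FE4 lay below the 4 P301S libraries, which were within 1561 to 1939. The log2 ratio was 1.29 [1.07, 1.502] in the APOE4 P301S contrast, and -0.10 [-0.28, 0.09] and -0.31 [-0.49, -0.14] in the tamoxifen contrasts with APOE3 and APOE4. Border macrophages, met in enough nuclei in TAFE4_oil and TAFE4_tam, held 999 and 144 CPM of Mt1, on 66 and 9 UMIs (-2.79 [-3.98, -1.78]).

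Mitochondrial and ribosomal transcripts moved with these values. In the APOE4 P301S contrast the median over classes was 1.45 for the metallothioneins, 1.19 for mitochondrially encoded genes, 0.93 for ribosomal protein genes and 0.16 for all genes, the last 0.10 to 0.25 by class. In FE4 against FE3 the medians were -0.96, -1.61, -0.75 and -0.11. In the APOE4 tamoxifen contrast they were -1.02, -1.23, -0.39 and -0.03, and in the APOE3 P301S contrast 0.32, -0.59, -0.04 and -0.07.

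In nuclei with at most 1% mitochondrial UMIs, which left 5 to 7 classes with at least 50 nuclei in both libraries, astrocytes not among them, 16 of 20 metallothionein values were higher past 2-fold in the APOE4 P301S contrast, with a median of 1.20. In the same nuclei 0 of 15 were called in FE4 against FE3, with a median of -0.46, and 5 of 21 were lower in the APOE4 tamoxifen contrast, with a median of -0.89. In the APOE3 P301S contrast 12 of 15 were above 0, with a median of 0.67, and in the APOE3 tamoxifen contrast 6 of 15, with a median of -0.02. With mitochondrial and ribosomal genes left out of the totals, 32 of 39 were higher in the APOE4 P301S contrast. Under TMM and median-of-ratios scaling, 30 and 29 of 39 were. Shares over all genes were not taken under these settings, so these counts cannot be set against a background.

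**Figure D4:**
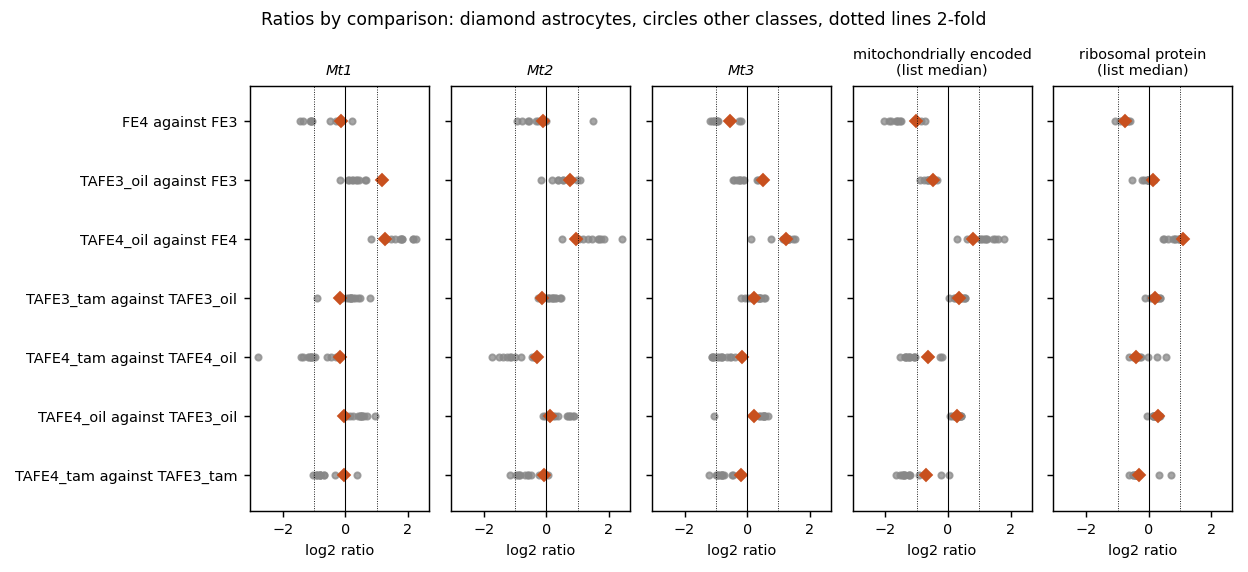
Log2 ratios of Mt1, Mt2 and Mt3 in each class and comparison, beside the class medians of mitochondrially encoded and ribosomal protein genes (diamonds astrocytes, circles other classes, dotted lines 2-fold). In the comparison of TAFE4_oil with FE4 31 of 39 metallothionein points are higher past 2-fold, and astrocytes lie near 0 for Mt1 in both tamoxifen comparisons (-0.19 and -0.18).

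Ratios inside a library do not depend on scaling between libraries. Astrocytes exceeded dentate granule neurons in Mt1 by 5.61-fold [5.16, 6.11] in FE3, 10.7-fold [9.90, 11.5] in FE4 and 10.7-fold [9.72, 11.9] in TAFE3_oil. The values were 8.31-fold [7.65, 9.04] in TAFE3_tam, 7.54-fold [6.90, 8.26] in TAFE4_oil and 14.2-fold [12.8, 15.7] in TAFE4_tam. FE4 and TAFE4_tam, of low mitochondrial share, exceeded FE3 and TAFE4_oil. Mt2 was 12.8- to 23.2-fold higher in astrocytes and Mt3 2.24- to 4.78-fold.

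**Figure D5:**
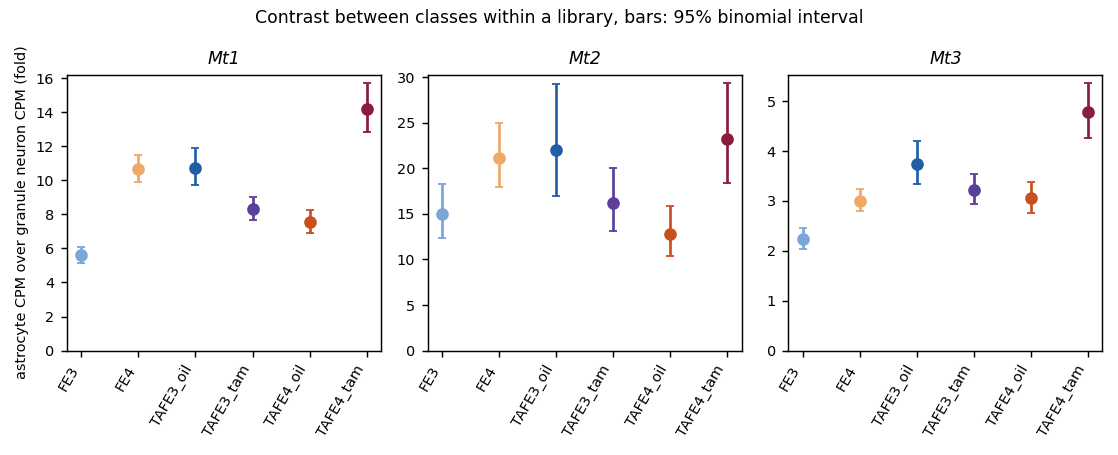
Fold of astrocyte over dentate granule neuron CPM within each library for Mt1, Mt2 and Mt3, with 95% binomial intervals and axes from 0. FE3 is lowest for Mt1 (5.61) and Mt3 (2.24), and TAFE4_tam is highest for all 3 genes.

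The mix of metallothionein RNA differed by class. Mt1 UMIs per Mt2 UMI were 2.79 to 3.85 in astrocytes, 4.56 to 5.66 in vascular fibroblasts and 5.51 to 7.90 in dentate granule neurons. Mt1 UMIs per Mt3 UMI in vascular fibroblasts were 1.73 to 1.89 in all 6 libraries, with overlapping intervals. In subicular or cortical neurons they were 0.690 and 0.636 in FE3 and FE4, 1.00 and 1.02 in the oil-treated P301S libraries, and 0.937 and 0.936 after tamoxifen. The highest upper bound of the untreated libraries was 0.776 and the lowest lower bound of the P301S libraries 0.859. CA1 neurons had 0.615 in both untreated libraries and 0.820 to 0.909 in the P301S ones, also without overlap. In dentate granule, CA2 or CA3 and inhibitory neurons the intervals overlapped. The subicular or cortical class differed in its mix of clusters between libraries. Mt1 and Mt3 were at 239 and 243 CPM in its Cux2 and Rorb cluster and at 187 and 218 in its Tshz2 cluster. The part of this mix in the ratios was not tested.

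Free RNA was not subtracted, and an astrocyte gene gives its scale in neurons. Gfap was at 30.9 and 14.6 CPM in dentate granule neurons of FE3 and FE4, and at 105 and 196 in those of the oil-treated P301S libraries. Its part in the neuronal Mt1 to Mt3 ratios was not tested.

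In endothelium the Mt1 to Mt3 ratio differed between the APOE3 and APOE4 libraries of P301S mice. With APOE3 it was 2.10 [1.81, 2.46] with oil and 2.28 [1.93, 2.70] with tamoxifen, and with APOE4 4.82 [4.06, 5.75] and 5.05 [3.99, 6.46]. FE4 had 2.15 [1.70, 2.71]. Mt3 was at 832.5 and 720 CPM in the 2 APOE3 libraries and 402 and 309 in the 2 APOE4 ones, log2 ratios of -1.05 [-1.34, -0.76] and -1.22 [-1.60, -0.84]. With no mitochondrial limit these were -0.31 and -0.83, and with doublets kept the first was also under 2-fold. Neuronal transcripts in endothelium had medians of -0.56 and -0.83 in the same comparisons, and their part was not tested. Nor was the part of the astrocyte and mural markers that this cluster carried.

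Most astrocytes held Mt1. The share with at least 1 UMI was 72.8% and 80.1% when untreated (APOE3, APOE4), 89.6% and 92.3% in the oil-treated P301S libraries, and 86.6% and 85.8% after tamoxifen. Thinned to 1000 UMIs a nucleus, with 3 to 94 shallower nuclei left out per library, the untreated libraries had 62.5 and 62.4% and the P301S ones 76.7 to 82.2%. Dentate granule neurons had 20.8 to 58.6%, or 10.1 to 31.5% thinned.

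Mt1 and Mt2 were also compared nucleus by nucleus. Among thinned astrocytes with an Mt2 UMI, Mt1 was found in 70.8 to 96.4%, and among those without in 55.2 to 75.7%, with the first share above the second in each of the 6 libraries. The intervals were apart in 3 of them, FE4, TAFE4_oil and TAFE4_tam. In TAFE4_oil the shares were 96.4% [91.0, 99.01] of 111 nuclei and 72.9% [65.6, 79.5] of 170.

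Across 60 points (10 classes in 6 libraries), the genes whose log2(CPM + 10) was most like that of each member are given as descriptions, since points share libraries and classes. Mt1 was closest to Prdx6 (Pearson r of 0.982), Aldoc (0.972) and Mt2 (0.968). Mt2 was closest to Prdx6 (0.974), Mt1 and Mlc1 (0.967), and Mt3 to Aldoc (0.972), Mt1 (0.959) and Dbi (0.944). Slc7a11 was closest to Gjb6 (0.987), Slc7a2 (0.970) and Lamb2 (0.967), and Nfe2l2 to Lgals3bp (0.896), Krcc1 (0.890) and Rhoa (0.882). Nqo1 was closest to Fkbp9 (0.910), Ahnak (0.906) and S100a10 (0.904), and Gclm to Id2 (0.873), Glud1 and Clu (both 0.856). The broad genes had lower values, with Jagn1 (0.722), Atp6v0e2 and Eif4a2 (both 0.721) for Keap1, Nampt (0.698), Prkar1a (0.679) and Hibadh (0.664) for Txnrd1, and Atg2b (0.595), Mrps27 (0.583) and Ankzf1 (0.554) for Gclc.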

How the data were processed

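Nuclei of 6 libraries were measured by droplet sequencing. The protocol in the labels names 3′ end sequencing together with Single Cell 5′ kits, and which was used is not settled here. The authors deposited raw UMI counts per gene and nucleus, and the file headers name Cell Ranger 3.1.0. The build mm10 and Seurat are named in the submitters' processing notes, without saying what Seurat was used for.

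Nuclei under 500 UMIs or 300 genes, or over 5% mitochondrial UMIs, were left out of these counts. Doublets were scored per library with scrublet in scanpy 1.11.5 and left out at its own threshold, or in TAFE3_oil at the expected share (0.8% per 1000 nuclei). From the 2000 most variable genes, without the members and listed genes, 30 principal components, 15 neighbours and Leiden clustering at resolution 1 gave 30 clusters. Classes of at least 50 nuclei were summed per library. Intervals of a level are exact Poisson, of a share exact Clopper-Pearson and of a ratio exact conditional binomial. Counts under 3 were set to 3 in ratios. UMI totals per library set the precision. The ratio script was tested on simulated data. Scaling by edgeR 4.0.16 TMM and by median of ratios, other filters, resolution 0.5 and other doublet rules were tried.

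Named were all 10 members, from each list and class up to 3 genes past 2-fold in the same direction in both APOE backgrounds, and the 3 most alike genes of each member with at least 100 UMIs. Other listed genes named were chosen after their values were seen. From the reactive astrocyte, label check and long nuclear RNA lists, genes are given as counts, examples or checks. The members and lists were chosen with earlier results of these data known.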

Additional observations from a re-analysis of the deposited data

Results flagged for a closer look

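Metallothioneins moved in opposite directions with the 2 APOE alleles in 15 cases, each with both intervals leaving out 0 and at least one value past 2-fold. The difference between alleles was not tested, since each group was 1 library. Metallothionein values measured were 33 with APOE3 and 39 with APOE4 in the P301S contrast, and 41 and 42 in the tamoxifen contrast. The share of all genes that met the same rule was not taken, so the 15 cases cannot be set against a background. In oil-treated P301S against untreated libraries these were Mt3 in 5 neuron classes, given as log2 ratios with APOE3 and then APOE4. They were -0.47 and 1.19 in CA1 neurons, -0.26 and 1.46 in CA2 or CA3 neurons, -0.24 and 1.23 in dentate granule neurons, -0.31 and 1.31 in inhibitory neurons, and -0.42 and 1.13 in subicular or cortical neurons. FE4, of low mitochondrial share, is the untreated library in each APOE4 value. Mitochondrially encoded genes had medians over classes of -0.59 and 1.19 in these 2 comparisons, and ribosomal protein genes of -0.04 and 0.93. Their part was not tested.

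In tamoxifen against oil the 10 other cases were higher with APOE3 and lower with APOE4. For Mt1 the values were 0.41 and -1.04 in CA1 neurons, 0.18 and -1.09 in dentate granule neurons, 0.16 and -1.43 in inhibitory neurons, 0.23 and -1.35 in microglia, and 0.31 and -1.21 in subicular or cortical neurons. For Mt2 they were 0.43 and -1.25 in subicular or cortical neurons. For Mt3 they were 0.33 and -1.11 in microglia, 0.39 and -1.12 in inhibitory neurons, 0.40 and -1.09 in subicular or cortical neurons, and 0.38 and -1.05 in oligodendrocytes. TAFE4_tam, also of low mitochondrial share, is the tamoxifen library in each APOE4 value. Mitochondrially encoded genes had medians over classes of 0.36 and -1.23 in these 2 comparisons, and their part was not tested.

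The opposite directions depended on the mitochondrial limit. In nuclei with at most 1% mitochondrial UMIs, the APOE3 values of Mt3 in oil-treated P301S against untreated libraries were -0.15 in CA1, -0.10 in CA2 or CA3, 0.24 in dentate granule, 0.09 in inhibitory and -0.19 in subicular or cortical neurons, with all 5 intervals including 0, and 3 of 5 cases were still opposite. In tamoxifen against oil 7 of the 10 cases could be measured in both alleles, and 5 of these were below 0 with APOE3 as well as with APOE4, for example Mt1 in CA1 neurons at -0.36 and -0.89. Mt3 was still opposite in inhibitory neurons (0.02 and -0.59) and in subicular or cortical neurons (0.23 and -0.88), and in the latter alone did the APOE3 interval leave out 0.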

How the results depend on the processing

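No paired analysis was possible because each group held 1 library and the labels give no replicate numbers. Shares over all genes were taken in the reported setting only. The counts below under other settings have no such share beside them. With no mitochondrial limit, the count of member values past 2-fold was 24 in place of 14 in FE4 against FE3, 5 in place of 3 in TAFE3_tam against TAFE3_oil, 3 in place of 5 in TAFE4_oil against TAFE3_oil and 12 in place of 7 in TAFE4_tam against TAFE3_tam. With at most 1% mitochondrial UMIs, which left fewer classes, the counts were 0 (FE4 against FE3), 1 (TAFE3_oil against FE3), 18 (TAFE4_oil against FE4), 0 (TAFE3_tam against TAFE3_oil), 8 (TAFE4_tam against TAFE4_oil), 1 (TAFE4_oil against TAFE3_oil) and 2 (TAFE4_tam against TAFE3_tam). TMM and median of ratios each gave 8 in FE4 against FE3. Resolution 0.5 gave 10 in TAFE3_oil against FE3. Asking for 100 UMIs over both libraries gave 1 (TAFE3_oil against FE3), 0 (TAFE3_tam against TAFE3_oil), 1 (TAFE4_oil against TAFE3_oil) and 4 (TAFE4_tam against TAFE3_tam). At least 1000 UMIs a nucleus gave 3 in TAFE4_tam against TAFE3_tam, and 2-fold without the interval gave 7 in TAFE3_tam against TAFE3_oil. Of 65 metallothionein values called, 34 held under every alternative run, 23 of 31 in TAFE4_oil against FE4, and of 26 called values of the other members 11 held. Txnrd1 in CA1 neurons, TAFE3_tam against TAFE3_oil, reversed to 0.092 with at most 1% mitochondrial UMIs, and Slc7a11 in choroid plexus, TAFE3_oil against FE3, to 0.13 with no mitochondrial limit. The cause was not tested. Leaving out the expected share of doublets in every library, an alternative chosen after seeing the data, changed no count by over 1.5 times. Depth limits Nqo1 (53 to 101 UMIs over all nuclei of a library), Nfe2l2 (139 to 349) and Txnrd1 (317 to 527).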
